A study of Bos taurus with 6 samples.

Results

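The genes that encode the subunits of RNA polymerases I, II and III were described in bovine blastocysts. All rows of the deposited expression table whose gene symbol starts with POLR1, POLR2 or POLR3 followed by a letter were taken, which gave 31 of 36075 genes, 8 of them named for Pol I, 13 for Pol II and 10 for Pol III. Each symbol was listed under a single Ensembl identifier. Control blastocysts came from oocytes matured in vitro without melatonin (MT), and MT-treated blastocysts from oocytes that had 1e-07 mol/L MT in the maturation medium for 22 h. Fertilization and embryo culture followed in both groups, the oocytes came from slaughterhouse ovaries, and the embryos were Bos taurus. Each library pooled 3 blastocysts, and the 3 libraries of a group came from separate in vitro production runs, in which the maturation treatments were done side by side. No label says which libraries share a run. Pooling, MT concentration and exposure time are described in the methods, while the sample titles hold embryo stage, group and replicate alone. No label gives a library batch, and how TPM were made for each group is not given in the sources used here, so a batch or a processing step that differed between the groups cannot be told apart from MT. Levels are in TPM, a unit meant to correct reads for transcript length and for the total of the library. How far levels of different genes in a library can be set side by side was not tested, and ranks and ratios between genes rest on it.

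In eukaryotic nuclei, transcription is divided among these enzymes. Pol I makes the precursor of the large ribosomal RNAs, Pol II makes messenger RNAs and many non-coding RNAs, and Pol III makes transfer RNAs, 5S ribosomal RNA and other short RNAs. Each enzyme has a catalytic core of a largest and a second largest subunit on an assembly platform, a stalk that takes up the emerging RNA, and a set of small subunits, some of which are common to all 3 enzymes. Pol I and Pol III also carry built-in relatives of general transcription factors of Pol II. The early embryo switches on its own transcription before it forms a blastocyst, and growth and ribosome production then depend on all 3 enzymes.

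The libraries of the 2 groups stood far apart as a whole. On the scale of log2(TPM + 1), the 11953 genes that reached 1 TPM in 3 or more libraries were tested, and 95.7% of them differed between MT-treated and control blastocysts at an adjusted p under 0.05 (limma with Benjamini-Hochberg adjustment), 61.6% being higher and 34.1% lower after MT. This split moved with the scaling of the libraries, to 70.4% and 25.4% when each library was centred on its median and to 46.4% and 44.4% after quantile normalization. In 33.8% of the tested genes all control libraries were listed at 0, against 3.01% for the MT-treated libraries, and the groups did not overlap in 96.1%. Of the 6925 tested genes above 0 in all 6 libraries, 40.6% were higher and 52.3% lower. Any call of a single subunit is therefore to be read against a background in which nearly every gene was called. Across tested genes, the Pearson correlation of the log2 values was 0.991 to 0.999 within groups and 0.544 to 0.546 between them, and across the 31 subunit genes it was 0.993 to 0.9999 within groups and 0.543 to 0.581 between them. Among markers of the blastocyst, the 11 listed trophectoderm genes summed to 11764 to 12089 TPM in the control and 10869 to 11262 TPM in the MT-treated libraries, most of it KRT8 and KRT18. Of these 11, CDX2 and ELF5 were at 0 in every control library, and TFAP2A went the other way, from 31.5 to 38.9 TPM in control to 0.46 to 0.55 TPM after MT. The 8 inner cell mass genes summed to 276 to 280.4 TPM and 329 to 332 TPM, with NANOG at 0 in every control library and FGF4 at 0 in all 6 libraries, POU5F1 at 188 to 191 TPM and 191 to 194 TPM, and SALL4 lower after MT, while KLF4 had 17.3 to 19.2 TPM and 83.6 to 84.04 TPM and SOX2 at most 0.02 TPM in control and 5.88 to 6.95 TPM after MT. The 6 hypoblast genes summed to 0.2 to 0.44 TPM and 61.2 to 69.6 TPM, with 5 at 0 in every control library and 2 in every MT-treated library. For other cell types, the 8 listed cumulus and granulosa genes summed to 96.1 to 97.8 TPM and 96.8 to 99.5 TPM, the 10 maternal oocyte genes, of which OOEP alone was above 0 in control, to 45.6 to 49.3 TPM and 21.3 to 23.6 TPM, and the 5 blood and immune genes to 32.8 to 35.1 TPM and 161 to 180.4 TPM. The sum for blood was carried mainly by the globin gene HBA, with HBB at 0 in control and 23.1 to 24.8 TPM after MT, while the immune genes CD14 and PTPRC were at 0 in all 6 libraries. CYP11A1 and FSHR carried the cumulus and granulosa sum, and FOXL2, HAS2, INHA and PTX3 were at 0 in all 6 libraries. The part of these differences in the levels of the polymerase genes was not tested, and in pooled embryos fewer cells of a type and less RNA per cell cannot be told apart.

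Zeros were listed mainly among the genes of Pol III. No POLR1 or POLR2 gene was at 0 throughout a group, whereas 6 of the 10 POLR3 genes were at 0 in all 3 control libraries, beside 33.8% of all tested genes. Of the 8 POLR1 genes, 2 rose and 6 fell after MT, of the 13 POLR2 genes 6 rose and 6 fell, and of the 10 POLR3 genes 7 rose and 3 fell (limma with Benjamini-Hochberg adjustment over all tested genes). Those 30 calls among 31 genes stood beside the 95.7% called among all tested genes. The split of the POLR1 genes was 4 higher and 4 lower when each library was centred on the median of the 5988 genes with at least 1 TPM in all 6 libraries, which removed a shift of -0.48 (log2) between the groups, and 2 higher and 4 lower after quantile normalization. For POLR2 it was 8 higher and 5 lower after centring and 6 higher and 7 lower after quantile normalization, and for POLR3 7 higher and 3 lower and then 5 higher and 4 lower. All 31 genes passed the filter on low values, but 8 POLR3 genes passed it through the libraries of 1 group only, so that a difference was built into their passing.

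**Figure D1:**
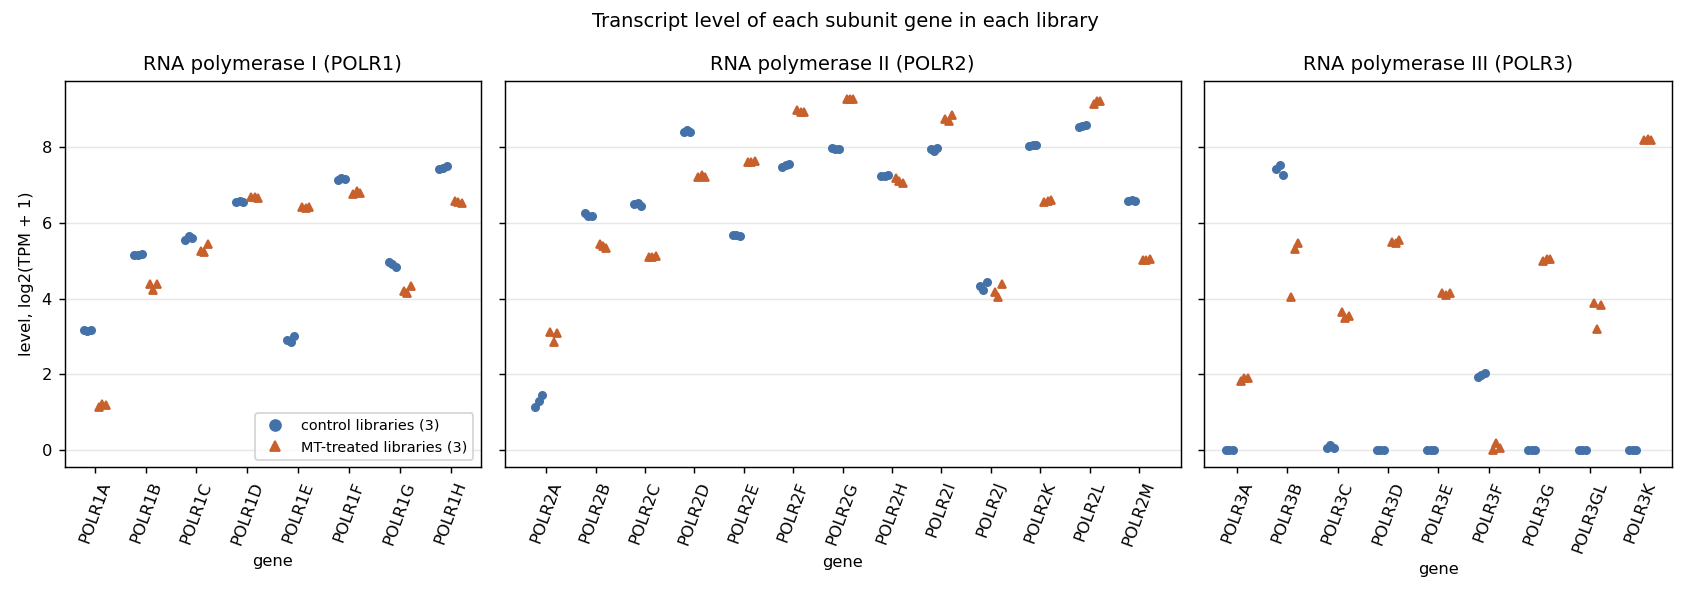
Level of 30 subunit genes in each library, as log2(TPM + 1) on the vertical axis, with 1 panel for each polymerase, circles for the 3 control libraries and triangles for the 3 MT-treated libraries. Replicates lie close together for most genes, and less so for POLR3B and POLR3GL after MT. Of the POLR3 genes, 6 sit at 0 in all control circles while the means of their MT-treated triangles reach from 1.86 (POLR3A) to 8.21 (POLR3K).

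Summed over the genes that carry its name, each polymerase had a steady level among replicates. The POLR1 genes summed to 529, 542 and 539.7 TPM in the control libraries and to 465, 466 and 470.1 TPM in the MT-treated libraries. The POLR2 genes summed to 2132, 2139.9 and 2159.8 TPM in control and 2845, 2824 and 2882 TPM after MT. The POLR3 genes summed to 211, 224 and 189.6 TPM in control and 431, 452 and 462 TPM after MT. The POLR1 sum was lower and the POLR2 and POLR3 sums were higher in every MT-treated library than in any control library, and these sums are of the deposited TPM and are given without a test. The lower POLR1 sum was a smaller difference than the shift of -0.48 (log2) that centring removes, so its direction turns after centring. The sums go by gene name, so the POLR2 sum holds genes whose products all of the polymerases share. Medians of the genes of a single enzyme went against the sums for Pol I and Pol II. For Pol I alone the median was 31.15 to 32.2 TPM in control and 50.5 to 52.5 TPM after MT. For Pol II alone it was 86.5 to 90.5 TPM in control and 39.6 to 42.4 TPM after MT. A few genes made up most of the POLR3 sums. In control it was mainly POLR3B, and after MT mainly POLR3K. POLR3K was at 0 in control and had a mean of 295 TPM after MT. The mean POLR3 sum went from 208 to 448 TPM, a smaller difference, so without POLR3K the sum was lower after MT. Across the 22 subunit genes with a mean of at least 5 TPM in control the median coefficient of variation was 2.19%, and across the 27 such genes after MT it was 2.49%. The widest spread among these genes, in both groups, was that of POLR3B, with 9.61% in control and 46.0% after MT. The standard errors and p-values given here rest on the spread among the libraries of a group. Whether that holds the full spread between separate pools of embryos was not tested.

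For Pol I, the genes of the catalytic core fell. POLR1A, which encodes the largest subunit, had TPM values of 8.02, 7.82 and 7.99 in control and of 1.17, 1.31 and 1.26 after MT, a difference of -1.99 (standard error 0.04, adjusted p = 1.63e-08 by limma) on the log2(TPM + 1) scale used for all differences here, which understates the change of genes with low TPM. POLR1B, the second largest subunit, had TPM values of 34.3, 34.8 and 34.9 in control and of 19.9, 17.6 and 19.8 after MT, a difference of -0.83 (standard error 0.05). The groups did not overlap for either gene, and the fall of POLR1A was the deepest among the POLR1 genes. The stalk gene POLR1F had TPM values of 139, 144 and 142 in control and of 108, 115 and 110.1 after MT, a difference of -0.35 that became 0.13 after centring and -0.06, no longer called, after quantile normalization. POLR1H, whose product takes part in cleaving the transcript, had TPM values of 172, 176 and 180.3 in control and of 95.1, 93.6 and 91.9 after MT, a difference of -0.90.

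The genes of the TFIIF-like pair of Pol I, which helps the enzyme to start and elongate, moved in opposite directions. POLR1E had TPM values of 6.45, 6.19 and 7.11 in control and of 85.1, 83.4 and 84.7 after MT, a rise of 3.50 (standard error 0.05, adjusted p = 4.71e-09 by limma). POLR1G had TPM values of 30.2, 29.01 and 27.4 in control and of 17.3, 16.6 and 19.2 after MT, a fall with a difference of -0.68 (standard error 0.06). POLR1E was thus the least abundant of the 8 POLR1 genes in control, and after MT it stood above 4 of the other genes. POLR1C and POLR1D encode the assembly platform that Pol I shares with Pol III. POLR1C had TPM values of 46.1, 49.1 and 47.2 in control and of 37.4, 36.8 and 42.2 after MT, a difference of -0.29, which turned to 0.19 after centring and to 0.01, with no call, after quantile normalization. POLR1D had TPM values of 92.7, 95.1 and 92.4 in control and of 101, 102 and 101 after MT, a small rise of 0.12 (standard error 0.02, adjusted p = 0.00109 by limma) that was 0.60 after centring. Among the 8 POLR1 genes the adjusted p-values by limma ran from 4.71e-09 to 0.00344, and the median difference was -0.52, beside -0.19 for the 6925 tested genes above 0 in all 6 libraries.

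**Figure D2:**
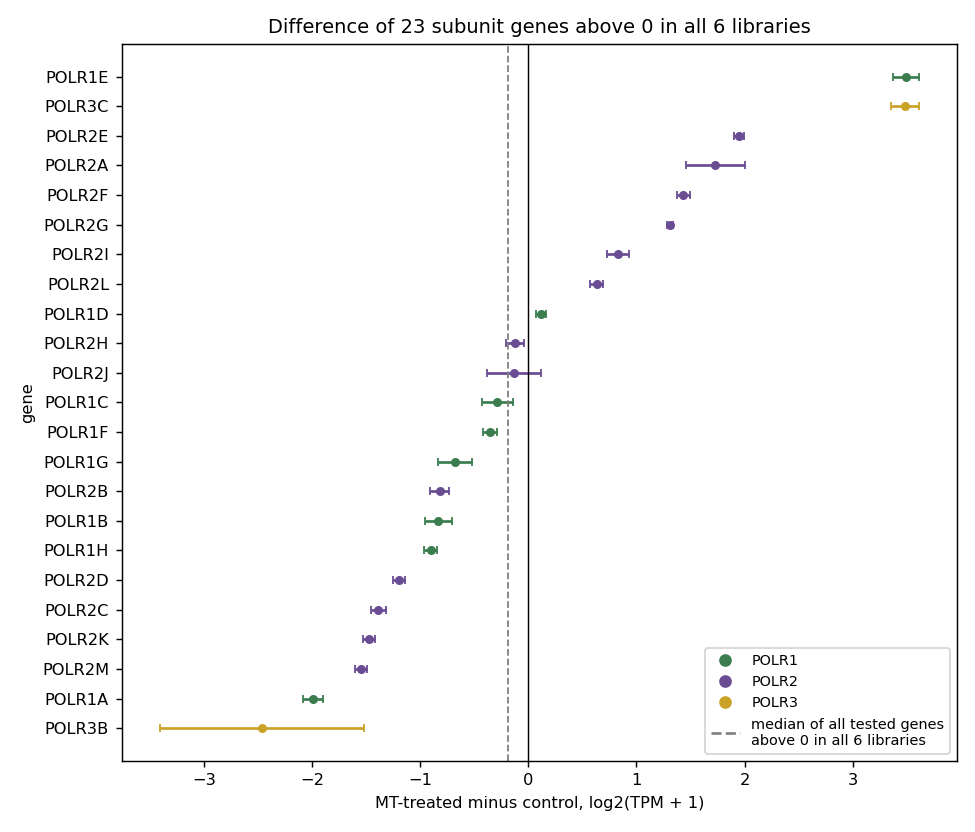
Difference between MT-treated and control blastocysts on the log2(TPM + 1) scale (horizontal axis) for 23 subunit genes above 0 in all 6 libraries, coloured by polymerase, with bars for limma's 95% confidence intervals and a dashed line at the median of tested genes (-0.19). POLR1E and POLR3C lie near 3.5 at the top, POLR3B lies at -2.46 at the bottom, and the interval of POLR2J covers 0.

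For Pol II, the genes of the core and the stalk did not move together. POLR2A encodes the largest subunit, whose tail of repeats is phosphorylated during transcription, and had TPM values of 1.17, 1.46 and 1.75 in control and of 7.67, 6.26 and 7.47 after MT, a difference of 1.73 (standard error 0.11, adjusted p = 7.88e-06 by limma). It was the least abundant POLR2 gene in every library, and its direction turned to -1.01 after quantile normalization. POLR2B, the second largest subunit, had TPM values of 75.1, 71.9 and 71.8 in control and of 42.4, 40.6 and 39.6 after MT, a difference of -0.82 (standard error 0.03). The platform gene POLR2C fell, with TPM values of 90.2, 90.5 and 86.5 in control and of 32.97, 33.5 and 33.9 after MT, a difference of -1.39. Its partner POLR2J had TPM values of 19.0, 17.9 and 20.8 in control and of 17.2, 15.4 and 19.96 after MT. The POLR2J values overlapped between the groups, with a difference of -0.13, a 95% confidence interval of -0.38 to 0.12 and an adjusted p of 0.251 by limma, the only one of the 31 genes that was not called. Its call and its direction depended on the setting. It was called higher after centring (difference 0.35, adjusted p = 0.0135 by limma), lower after quantile normalization (difference -0.61, adjusted p = 0.0325 by limma) and lower with the replicate number as a block (adjusted p = 0.0377 by limma), and the range over all alternatives was 0.0135 to 0.635.

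The stalk of Pol II is formed by POLR2D and POLR2G. POLR2D had TPM values of 340.1, 349 and 338 in control and of 147, 153 and 148 after MT, a fall with a difference of -1.19 (standard error 0.02). POLR2G had TPM values of 252, 248 and 249.7 in control and of 625, 616 and 624 after MT, a rise of 1.31 (standard error 0.01, adjusted p = 1.25e-09 by limma). POLR2D was thus the more abundant of the pair in control and POLR2G after MT. POLR2I, which is needed for accurate transcription and for cleavage of stalled transcripts, had TPM values of 245, 238 and 251 in control and of 430.2, 416 and 458 after MT, a rise of 0.83. POLR2M, a protein that associates with Pol II and is not part of its core, had TPM values of 94.4, 95.9 and 93.8 in control and of 31.5, 31.6 and 32.3 after MT, a fall with a difference of -1.54. Every POLR2 gene apart from POLR2J had groups that did not overlap, as did 96.1% of tested genes.

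The products of POLR2E, POLR2F, POLR2H, POLR2K and POLR2L are built into all 3 polymerases. POLR2E had TPM values of 50.2, 50.3 and 49.5 in control and of 194, 194 and 199 after MT, and with a difference of 1.95 (standard error 0.02, adjusted p = 1.32e-09 by limma) it had the largest rise of the 13 POLR2 genes on the log2(TPM + 1) scale. POLR2F had TPM values of 179, 185 and 188 in control and of 508, 491 and 493 after MT, a rise of 1.43. POLR2L had TPM values of 373, 376 and 387 in control and of 571, 595 and 598 after MT, a rise of 0.63. In contrast, POLR2K fell, and the levels of POLR2H were close between the groups. POLR2K had TPM values of 262, 267 and 268 in control and of 92.9, 94.9 and 97.03 after MT, a difference of -1.48 (standard error 0.02, adjusted p = 6.23e-09 by limma). POLR2H had TPM values of 150.2, 149 and 154 in control and of 145, 137 and 133 after MT, a difference of -0.12 (adjusted p = 0.0121 by limma) that turned to 0.35 after centring and 0.14 after quantile normalization. Of these 5 shared genes 3 rose and 2 fell, with POLR2H turning under both scalings. All 5 were above 0 in all 6 libraries, where 40.6% of tested genes were higher and 52.3% lower (61.6% and 34.1% among all tested genes). Their median level in a library was 179 to 188 TPM in control, held by POLR2F, and 194 to 199 TPM after MT, held by POLR2E. Over the 13 POLR2 genes the median difference was -0.12, beside -0.19 for the tested genes above 0 in all 6 libraries.

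For Pol III, the 6 genes at 0 in every control library came from several parts of the enzyme. No fold is given for them, because a listed 0 can stand for an absent transcript or for one that was not captured or counted, and Pol III itself is used by every growing cell. POLR3K, a small subunit for RNA cleavage and termination, had 293, 297 and 294 TPM after MT, more than any other POLR3 gene. POLR3D and POLR3E, the TFIIF-like pair, had 44.1, 43.3 and 45.7 TPM and 16.8, 16.2 and 16.6 TPM after MT. POLR3G and POLR3GL, paralogues of which 1 copy sits in each enzyme, had 31.1, 32.02 and 32.2 TPM and 13.8, 8.10 and 13.2 TPM. POLR3A, the largest subunit, had 2.51, 2.72 and 2.69 TPM after MT. Apart from POLR3GL, whose MT-treated replicate 2 lay lower than the other replicates, each of the 6 had closely placed MT-treated values. All 6 were called higher, but they passed the filter through the MT-treated libraries alone, so that the call was built into their passing and no p is given for them. POLR3A, the lowest of them, turned to a difference of -0.18 after quantile normalization, a procedure that forces a common set of values on the libraries and so lifts the listed zeros of control.

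The other POLR3 genes, POLR3C, POLR3F and POLR3B among them, were measured above 0 in control. POLR3C, a subunit of the heterotrimer that takes part in initiation, had TPM values of 0.03, 0.09 and 0.03 in control and of 11.4, 10.2 and 10.6 after MT, and its difference of 3.48 became 0.18, no longer called, after quantile normalization. POLR3F, of the same heterotrimer, went the other way with TPM values of 2.76, 2.90 and 3.06 in control and of 0, 0.13 and 0.03 after MT (difference -1.89). Each of these 2 genes reached 1 TPM in 1 group only, so that its call too was built into its passing the filter. The third position of the heterotrimer is taken by POLR3G or POLR3GL, and POLR3G made up 69.2%, 79.8% and 70.9% of their joint TPM in the MT-treated libraries (mean 73.3% ± 5.70, SD, n = 3). This share cannot be formed in control, where both genes were at 0. In control POLR3F was thus the only gene of the trimer above 0.1 TPM, and after MT it was the only one below 1 TPM.

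POLR3B, the second largest subunit, fell. It had TPM values of 173, 185 and 152 in control and of 15.6, 38.7 and 43.7 after MT, a difference of -2.46 (standard error 0.38, adjusted p = 0.000864 by limma). MT-treated replicate 1 was far below the other MT-treated libraries, and without it the difference was -2.01. CRCP, a further gene of Pol III whose symbol lies outside the rule, had TPM values of 97.3, 94.2 and 97.1 in control and of 129.9, 121 and 123.03 after MT, a rise of 0.37 (standard error 0.03).

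Ratios between contacting subunits were formed within each library, since such a ratio is not moved by multiplying all values of a library by a common factor. The pairs were chosen with the values known, so the ratios are given as a description with no test. POLR1A was 0.229 ± 0.00483 of POLR1B in control and 0.0657 ± 0.00809 after MT (mean ± SD of the TPM ratio, n = 3 each), 3.49-fold lower. POLR2A was 0.0201 ± 0.0044 of POLR2B in control and 0.175 ± 0.0181 after MT, 8.7-fold higher. On the deposited scale the catalytic pairs of Pol I and Pol II thus shifted in opposite directions. As differences of log2(TPM + 1) values, these shifts were -1.16 for POLR1A over POLR1B and 2.55 for POLR2A over POLR2B. After quantile normalization, which can change ratios, they were -2.08 and -0.49 on the same scale. The shift of the Pol II pair thus turned, and both pairs moved down. The other 4 pairs of the plot of ratios kept their direction. In both groups the largest subunit had the lower level of the pair. For Pol III this ratio exists only after MT, where POLR3A was 0.0977 ± 0.0552 of POLR3B (n = 3). The TFIIF-like pair of Pol I had the largest change among these ratios, with POLR1E at 0.229 ± 0.0268 of POLR1G in control and 4.79 ± 0.331 after MT, 20.9-fold higher. POLR3D was 2.68 ± 0.0578 of POLR3E after MT. The stalk genes of Pol II shifted as well, and POLR2G was 0.73 ± 0.0159 of POLR2D in control and 4.16 ± 0.123 after MT, 5.7-fold higher. On the deposited scale the platform pairs moved least, with POLR1C at 0.508 ± 0.0102 of POLR1D in control and 0.383 ± 0.0311 after MT, and POLR2C at 4.65 ± 0.465 of POLR2J in control and 1.93 ± 0.237 after MT.

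**Figure D3:**
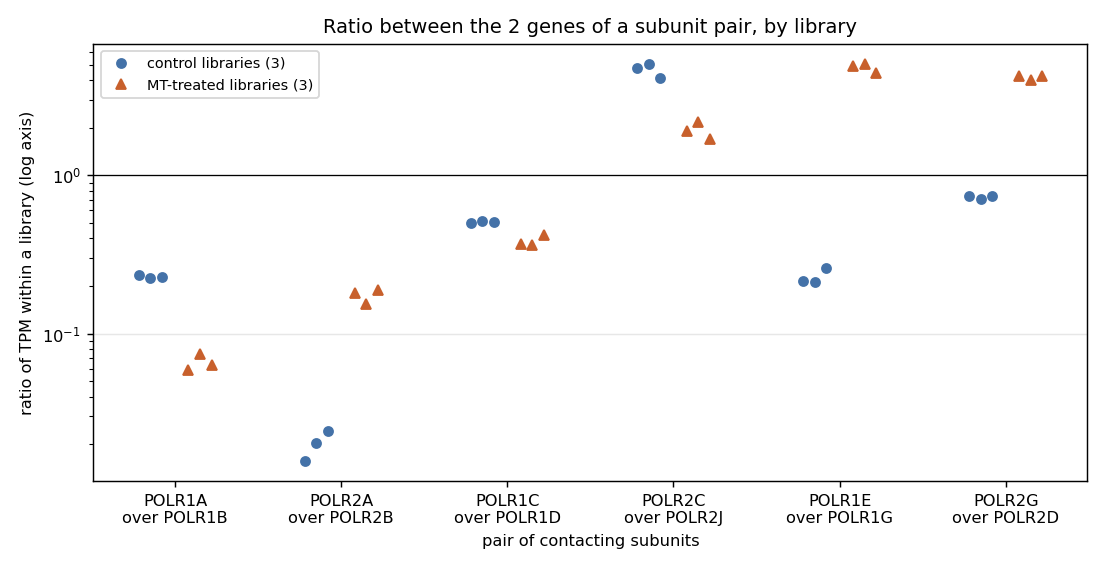
Ratio of TPM between the genes of 6 pairs of contacting subunits in each library, on a log axis, with circles for the 3 control and triangles for the 3 MT-treated libraries. The groups are separate for each pair, the ratio crosses 1 for POLR1E over POLR1G and for POLR2G over POLR2D, and it is nearest between the groups for POLR1C over POLR1D.

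With the libraries centred or quantile normalized, 24 of the 31 genes kept both their direction and their side of the threshold under both scalings. The 7 others were POLR1C, POLR1F, POLR2A, POLR2H, POLR2J, POLR3A and POLR3C. Leaving out any of the 6 libraries changed neither the call nor the direction of any of the 31 genes. In the RefSeq gene table for ARS-UCD2.0, a later assembly than that of the files, 11 of the 31 genes overlapped another gene, and reads in such a stretch can be assigned to either gene or to neither. Of the 6 POLR3 genes at 0 in control, POLR3G and POLR3GL were among these 11 and the other 4 were not. POLR3C, POLR1C, POLR1G, POLR1H, POLR2B, POLR2C, POLR2I and POLR1A were also among the 11, and their levels carry this uncertainty.

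**Figure D4:**
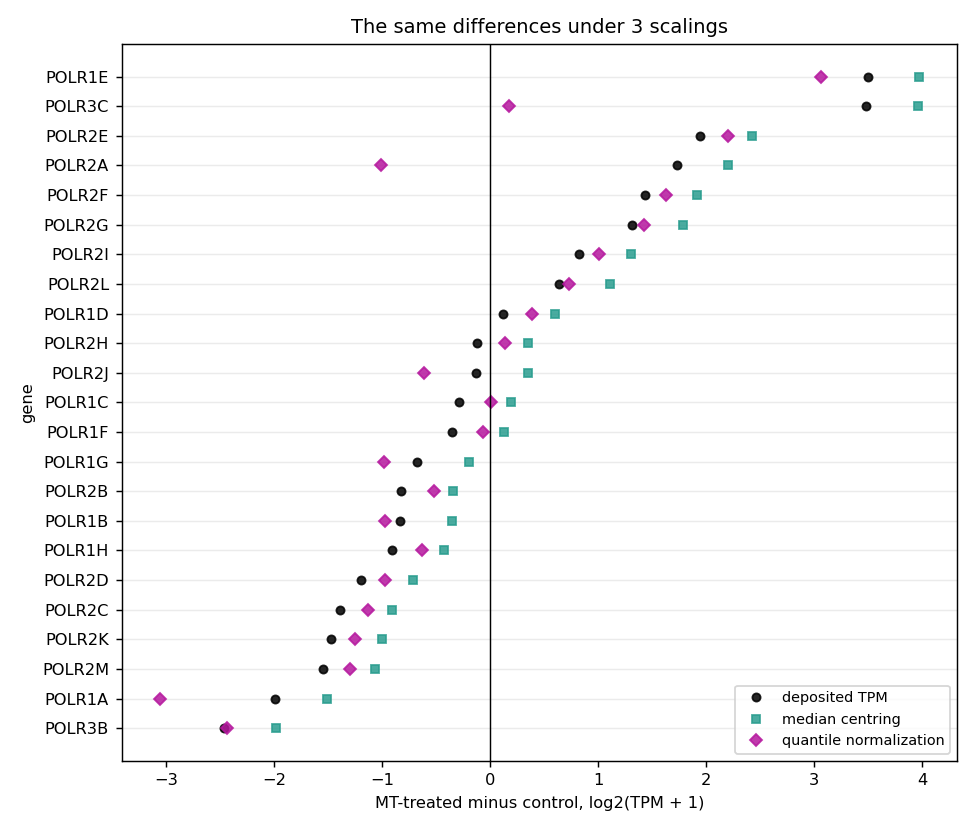
Difference between MT-treated and control blastocysts on the log2(TPM + 1) scale for 23 subunit genes above 0 in all 6 libraries, with the deposited TPM (circles), after median centring (squares) and after quantile normalization (diamonds). Centring moves each gene up by 0.48, and quantile normalization moves low genes such as POLR2A and POLR3C furthest.

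The factors that bring each polymerase to its genes were examined from lists written from general knowledge. Their counts are given beside the shares of all tested genes that were higher and lower under the same scaling, named background. For tested genes above 0 in all 6 libraries the shares on the deposited scale were 40.6% and 52.3%. Of 11 genes for Pol I initiation and its regulation, 8 were tested, and 7 rose and 0 fell (background 61.6% and 34.1%). After centring it was 7 and 0 (background 70.4% and 25.4%), and after quantile normalization 6 and 2 (background 46.4% and 44.4%). Of these 7, 3 were at 0 throughout control and passed the filter through the MT-treated libraries alone. UBTF, which binds the ribosomal DNA, was the exception, with TPM values of 7.62, 7.54 and 7.37 in control and of 7.17, 2.88 and 6.09 after MT (adjusted p = 0.135 by limma). TAF1B, a subunit of the Pol I selectivity factor, and TTF1, a termination factor, were at 0 throughout control and had 13.97, 12.8 and 13.1 TPM and 14.9, 13.7 and 12.9 TPM after MT. SMARCA5, a chromatin remodeller, had TPM values of 7.90, 8.49 and 7.52 in control and of 43.5, 45.1 and 43.4 after MT. TCOF1, which supports ribosomal RNA synthesis, had TPM values of 2.64, 2.96 and 2.77 in control and of 15.2, 15.1 and 15.9 after MT. The difference of TCOF1 was 2.11, and 0.51 after quantile normalization. TAF1D, of the selectivity factor, rose by 1.33 and BAZ2A, of a remodelling complex that silences ribosomal genes, by 0.79.

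Among 24 tested general transcription factors of Pol II, 6 rose and 18 fell (background 61.6% and 34.1%). Of the 24, 23 were above 0 in all 6 libraries, and among all such tested genes 40.6% were higher and 52.3% lower. After centring it was 10 and 14 (background 70.4% and 25.4%), and after quantile normalization 5 and 17 (background 46.4% and 44.4%). GTF2E1 among the 6 and TAF12 among the 18 reached 1 TPM in 1 group only, so that their calls were built into their passing the filter. The median difference was -1.0 over the 23 above 0 in all 6 libraries, beside -0.19 for all such genes. GTF2A1, of TFIIA, had TPM values of 48.3, 47.8 and 49.4 in control and of 2.06, 1.78 and 1.91 after MT, a difference of -4.09. TAF12, of TFIID, had TPM values of 60.9, 57.9 and 61.3 in control and of 0.61, 0.55 and 0.43 after MT, a difference of -5.32. The genes of TFIIF went the other way on the deposited scale. GTF2F1 had TPM values of 1.77, 1.77 and 2.07 in control and of 12.2, 12.6 and 12.0 after MT, and GTF2F2 had 13.02, 14.7 and 14.9 TPM after MT against 1.94, 2.12 and 1.98 TPM in control. After quantile normalization the differences of GTF2F1 and GTF2F2 were -0.17 and 0.39, and the first was no longer called. GTF2E1, of TFIIE, was at 0 throughout control and had 9.32, 9.61 and 9.03 TPM after MT.

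Of 24 tested genes for Pol II pausing and elongation, 15 rose and 7 fell (background 61.6% and 34.1%). After centring it was 20 and 3 (background 70.4% and 25.4%), and after quantile normalization 12 and 8 (background 46.4% and 44.4%). Of the 15, 7 were under 1 TPM throughout control and passed the filter through the MT-treated libraries alone. NELFCD, of the pausing factor NELF, had TPM values of 0.03, 0.11 and 0.17 in control and of 14.97, 15.7 and 16.1 after MT. SUPT6H, a histone chaperone of elongating Pol II, had TPM values of 1.10, 1.04 and 1.04 in control and of 20.98, 22.2 and 20.9 after MT. CDK12, a kinase of the Pol II tail, and CCNT1, a cyclin of the elongation factor P-TEFb, were at 0 throughout control and had 43.8, 36.7 and 32.01 TPM and 11.8, 12.8 and 11.5 TPM after MT. ELL2, an elongation factor, fell, with TPM values of 64.6, 62.5 and 65.9 in control and of 2.07, 2.36 and 2.15 after MT, as did CDK13, a relative of CDK12, with TPM values of 23.7, 28.9 and 26.8 in control and of 3.41, 3.36 and 3.01 after MT. The cyclins CCNK and CCNT2 were not called, at TPM values of 12.2, 13.1 and 12.0 in control and of 12.4, 12.1 and 11.2 after MT for CCNK and at TPM values of 23.8, 25.4 and 25.7 in control and of 25.97, 25.9 and 27.3 after MT for CCNT2.

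For the initiation factors of Pol III, with its repressor MAF1 and the RNA-binding protein SSB, 12 of 17 listed genes were tested, and 6 rose and 6 fell, MAF1 and SSB among the latter (background 61.6% and 34.1%). After centring it was 8 and 3 (background 70.4% and 25.4%), and after quantile normalization 5 and 6 (background 46.4% and 44.4%). Of the 6 that rose, all but SNAPC3 were under 1 TPM throughout control and had to be higher to pass the filter. GTF3A, which starts 5S ribosomal RNA synthesis, had TPM values of 56.5, 55.9 and 57.7 in control and of 6.67, 5.59 and 5.01 after MT, and BRF2, of a variant TFIIIB, had TPM values of 23.1, 21.8 and 23.9 in control and of 10.4, 10.5 and 10.8 after MT. Both fell. SNAPC1 and SNAPC3, of the complex that binds promoters of small nuclear RNA genes, rose. SNAPC3 had TPM values of 29.8, 30.8 and 30.4 in control and of 48.7, 48.5 and 49.1 after MT, and SNAPC1 had TPM values of 0.32, 0.30 and 0.38 in control and of 7.27, 8.04 and 7.43 after MT with a difference of 2.69 that was -0.45 after quantile normalization. GTF3C2, of TFIIIC, and SNAPC2 were at 0 throughout control and had 6.81, 6.31 and 6.62 TPM and 6.89, 6.94 and 7.0 TPM after MT.

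Of 13 tested genes for assembly and nuclear import of the polymerases, 5 rose and 6 fell (background 61.6% and 34.1%). After centring it was 7 and 5 (background 70.4% and 25.4%), and after quantile normalization 6 and 7 (background 46.4% and 44.4%). Of the 5 that rose, GPN2, PDRG1 and RPAP2, which the pausing list holds too, passed the filter through the MT-treated libraries alone. GPN1, a GTPase for nuclear import of Pol II, had TPM values of 109, 107 and 109 in control and of 23.8, 24.04 and 20.9 after MT, a fall, while its relative GPN2 was at 0 throughout control and had 15.2, 13.1 and 14.1 TPM after MT. PDRG1, a prefoldin-like protein of the assembly machinery, was at 0 in every control library too, with 9.95, 11.9 and 12.1 TPM after MT. URI1 and UXT, prefoldin-like partners in the assembly of the enzymes, rose, with TPM values of 1.11, 1.15 and 1.22 in control and of 12.3, 12.3 and 12.7 after MT for URI1 and TPM values of 46.1, 47.8 and 46.95 in control and of 85.8, 76.1 and 81.9 after MT for UXT. The difference of URI1 was 2.64, and 0.14 after quantile normalization. SLC7A6OS, the relative of a yeast import factor of Pol II, fell, with TPM values of 43.99, 43.5 and 45.8 in control and of 12.99, 13.03 and 12.7 after MT. PIH1D1 and RPAP3, of the co-chaperone that acts in assembly, were not called, at TPM values of 140.4, 138 and 141 in control and of 142, 138 and 145 after MT for PIH1D1 and at TPM values of 10.8, 11.97 and 9.68 in control and of 11.2, 11.3 and 11.3 after MT for RPAP3.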

How the data were processed

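RNA of bovine blastocysts was measured in 6 libraries, 3 control and 3 MT-treated. TPM values, given to 2 decimals for each gene, were deposited by the authors. Reads were checked with fastp and FastQC 0.11.9, aligned with STAR 2.7.9a and counted with featureCounts, and how TPM were made from the counts is not given in the sources used here. The genome was ARS-UCD1.3 in the paper and ARS-UCD1.2 in the submitters' processing notes. The paper names Smart-seq2 and the labels a TruSeq kit. Strand use in counting is not given. TPM holds no counts, and the study's table of sequencing depth was not used here, so no counting errors are given and the precision rests on 3 libraries a group. The study used DESeq2 on counts, which were not used here.

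Groups and columns were matched through the labels. The genes that reached 1 TPM in 3 or more libraries were fitted as log2(TPM + 1) with limma 3.58.1 (lmFit, eBayes with trend) under R 4.3.3, adjusted by the Benjamini-Hochberg method over all 11953 tested genes at a threshold of 0.05. The fit was tested on simulated data. Figures used Python 3.11.15 and matplotlib 3.10.9. RefSeq symbols (assembly ARS-UCD2.0) matched all 31 subunit genes. The alternatives were pseudocounts of 0.1 and 5, no filter, a minimum of 5 TPM, genes above 0 in all 6 libraries, quantile normalization, median centring, TPM rescaled to equal totals, no trend, a replicate block and each library left out.

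The members, lists, roles and pairs were chosen with earlier results of these data known. All members were counted, the values of 1 subunit gene are not reported here, and the others were described. The text also names, from each list, up to 2 of the called genes above 0 throughout that rose most and that fell most and the 2 most abundant called genes at 0 in a group, together with TAF1D, BAZ2A, MAF1, SSB, RPAP2 and genes that were not called, which were added after their values were seen.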

Additional observations from a re-analysis of the deposited data

How the results depend on the processing

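Pseudocounts of 0.1 and 5, no filter, TPM rescaled to equal totals, no intensity trend and each of the 6 libraries left out changed no call or direction of the 31 genes, and a minimum of 5 TPM changed none of the 29 genes that it kept, nor did a test on genes above 0 in all 6 libraries change any of the 24 that it kept. After median centring the differences of POLR1C (0.19), POLR1F (0.13), POLR2H (0.35) and POLR2J (0.35) turned, and 4 POLR1 genes were higher. After quantile normalization those of POLR1C (0.00688), POLR2A (-1.01), POLR2H (0.14) and POLR3A (-0.18) turned, POLR1F and POLR3C were no longer called, and POLR2J was called lower (-0.61, adjusted p = 0.0325 by limma). Of the genes above 0 in all 6 libraries 2814 were higher, among them 1 of 3 POLR3 genes, since fewer genes were tested. Over all tested genes 8412 were higher and 3038 lower after median centring, and 5550 and 5311 after quantile normalization. With 1 library left out, 7319 to 7338 genes were higher and 4004 to 4049 lower, with 2 and 6 for POLR1, 6 and 6 for POLR2 and 7 and 3 for POLR3. The share of POLR3G was 70.1% to 75.4% with an MT-treated library left out, and it could not be tested because it cannot be formed in control.

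Replicate numbers were not shown to pair the libraries, since no label ties a number to a run and deviations of same-numbered libraries from their group means correlated at -0.0115, -0.000679 and 0.0588 across tested genes. With a replicate block 7379 genes were higher and 4082 lower, and POLR2J was called lower (adjusted p = 0.0377 by limma, range over its alternatives 0.0135 to 0.635). No other subunit gene changed under the block. Without counts or depth in the values used here, no upper limit is given for a listed 0.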
